A study of Rattus norvegicus with 6 samples.

Results

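The 10 genes described here encode amino acid transporters of the plasma membrane that are known for being regulated: the system A carriers Slc38a1, Slc38a2 and Slc38a4, and the exchangers and uniporters Slc7a1, Slc7a5, Slc7a6, Slc7a11, Slc7a15, Slc1a4 and Slc1a5. They are 10 of 17051 genes listed in the files, and each was present and had 1 listed transcript. The set was selected on measured values of these rats, with Slc38a2, Slc38a4 and Slc7a15 put forward as lower under the amino acid diet, so the differences between diets in these genes are given as a description, without a test.

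RNA from kidney tissue of 6 male Sprague Dawley rats was sequenced, and the labels do not say which part of the kidney was taken. The AL group (rats 61, 71 and 88) had standard chow ad libitum, labelled a normal diet, and the HD group (rats 64, 67 and 69) had a hyperammonemic diet, in which an amino acid mixture that mimics haemoglobin was added to chow for a week. No allele or drug was named as a difference between the groups. Per the study's methods, rats had surgery under isoflurane after the week of diet. Catheters were placed and para-aminohippuric acid was infused to measure renal blood flow. Each library came from 1 rat, so the spread is between animals. The comparison asks how the kidney's transcripts differ when the amino acid load is raised.

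System A carriers use the sodium gradient to concentrate small neutral amino acids such as alanine, glutamine and glycine inside the cell. Exchangers then trade these internal amino acids for others from outside, so both classes together set the amino acid pool. Slc38a2 transcripts are known to rise when cells are short of amino acids and when the medium becomes hypertonic, and in the kidney the inner medulla is the hypertonic region.

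The libraries held from 12499945 to 30466461 estimated counts, the deepest being that of HD rat 69. A gene was tested if at least 1 rat had a count of 30, which left 11553 genes. At an adjusted *P* of 0.05 (edgeR quasi-likelihood test with Benjamini-Hochberg adjustment), 0 genes differed between the diets, 0% of those tested. At an unadjusted *P* below 0.05, 686 genes were lower and 538 higher in HD, and DESeq2 called 182 genes at the adjusted threshold. The kidney label was borne out by its markers: markers of the straight proximal tubule summed to between 6217 and 10660 CPM (counts per unit of library size, scaled by TMM, the trimmed mean of M-values), those of the thick ascending limb to between 3648 and 6232, and hepatocyte markers to at most 3.07.

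Among the members, 7 of 10 were lower in HD, with a median log2 fold change of -0.36. Between 6 and 8 were lower when 1 rat was left out, and the median then ran from -0.25 without HD rat 64 to -0.55 without HD rat 69. Over all tested genes 5625 of 11553 were lower, which is 48.7%, and the median was 0.0067. Every HD rat lay below every AL rat for 3 members, Slc38a2, Slc38a4 and Slc7a6, against 7.01% of all tested genes. No member (0 of 10) had every HD rat above every AL rat, against 7.25% of all tested genes. Because the members were chosen on this contrast, these counts only describe the set. Values per rat below follow the order 61, 71 and 88 for AL, then 64, 67 and 69 for HD, in CPM.

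**Figure D1:**
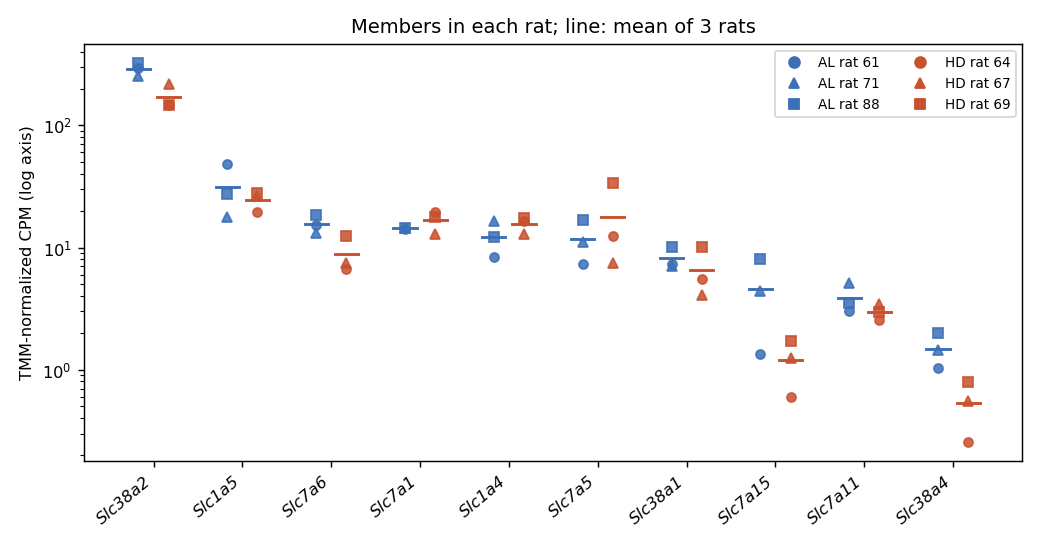
CPM of each member in each rat, on a log axis, with members ordered by their AL mean; points are rats, horizontal lines are means of 3 rats, blue is AL and orange is HD. Slc38a2 stands far above the others in both diets, and the HD points of Slc38a2, Slc7a6 and Slc38a4 lie below all their AL points.

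Slc38a2 (SNAT2, rn5 chr7:137716131-137728300, minus strand, 16 exons) is the system A carrier that responds to amino acid supply in many cells. It was the most abundant member. Its AL rats had 293.2, 254.2 and 324.5 CPM and its HD rats 146.2, 216.5 and 146.6 CPM. The groups did not overlap, and the HD rat closest to AL was rat 67. The mean was 290.6 ± 35.2 CPM in AL and 169.7 ± 40.5 in HD (SD, n = 3), a log2 fold change of -0.78 ± 0.19 (SE). Counts of 1722 to 4904 stood behind these values, so counting error was small beside the spread between rats.

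Slc38a4 (SNAT4, chr7:138083493-138105507, minus strand, 15 exons) is a system A carrier best known from liver and placenta that also moves cationic amino acids. It had only 13, 26 and 30 counts in the AL rats and 3, 11 and 25 in the HD rats, or 1.03, 1.44 and 1.99 against 0.255, 0.550 and 0.799 CPM. The HD rats were again all below the AL rats, but the gene was tested only because AL rat 88 reached the count of 30. The 3 counts of rat 64 have a 95% exact Poisson interval from 0.619 to 8.77 counts, which covers counting error only. The fitted log2 fold change was -1.39 ± 0.52 (SE).

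Slc38a1 (SNAT1, chr7:137603303-137667386, minus strand, 16 exons) carries glutamine and other small neutral amino acids. It had 7.39, 7.04 and 10.1 CPM in AL and 5.52, 4.10 and 10.0 CPM in HD. Rats 64 and 67 were below every AL rat, whereas rat 69 was at the level of the highest AL rat, so the groups overlapped. The log2 fold change was -0.31 ± 0.36 (SE), smaller than its error. These 3 carriers are neighbours in the same orientation: 48744 bases separate the transcripts of Slc38a1 and Slc38a2, and 355192 bases those of Slc38a2 and Slc38a4.

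Among the light chains that pair with the heavy chain Slc3a2, Slc7a6 (y+LAT2, chr19:49029315-49045949, plus strand, 9 exons) exchanges cationic for neutral amino acids. It had 15.4, 13.03 and 18.5 CPM in AL and 6.62, 7.49 and 12.3 CPM in HD. The groups did not overlap, although rat 69 came within 1 CPM of AL rat 71. Means were 15.7 ± 2.76 and 8.81 ± 3.06 CPM (SD, n = 3), a log2 fold change of -0.82 ± 0.27 (SE), about the size of that of Slc38a2.

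Slc7a5 (LAT1, chr19:65412970-65441647, minus strand, 10 exons) imports large neutral amino acids such as leucine. Its levels were 7.31, 11.03 and 16.9 CPM in AL and 12.3, 7.44 and 33.6 CPM in HD. Rat 69 alone put the HD mean above the AL mean, since both other HD rats lay inside the AL range. The log2 fold change of 0.61 ± 0.56 (SE) became -0.25 when rat 69 was left out.

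Slc7a11 (xCT, chr2:158930294-159004611, minus strand, 12 exons) exchanges cystine for glutamate and supplies cysteine for glutathione. It was scarce, with 3.02, 5.15 and 3.51 CPM in AL and 2.55, 3.45 and 2.94 CPM in HD. The groups overlapped, and the log2 fold change was -0.39 ± 0.31 (SE). Its heavy chain Slc3a2, which is no member, had an adjusted *P* of 0.49 (edgeR) and a log2 fold change of 0.32 ± 0.14 (SE). Per transcript length, in TPM (transcript levels scaled to a fixed sum), Slc3a2 stood at 100 ± 12.99 in AL and 119 ± 27.1 in HD, while the levels of Slc7a5, Slc7a6 and Slc7a11 summed to 12.9 ± 3.57 and 12.2 ± 8.16 TPM (SD, n = 3).

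Slc7a15 (chr6:43511030-43521748, minus strand, 6 exons) encodes a transporter that prefers aromatic amino acids and pairs with a heavy chain. It varied most among the AL rats relative to its mean, with 1.35, 4.38 and 8.07 CPM, and had 0.594, 1.25 and 1.73 CPM in HD. AL rat 61 lay below HD rat 69, so the groups overlapped, which the choice of this gene as one that is lower under the diet does not show. The counts ran from 7 in rat 64 to 122 in rat 88. The log2 fold change was -1.90 ± 0.66 (SE), the most negative of the 10, and 111 of the tested genes had a lower value.

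The cationic amino acid transporter Slc7a1 (CAT1, chr12:10169916-10192908, plus strand, 11 exons) takes up arginine and lysine without a heavy chain. Its AL rats were nearly equal at 14.2, 14.5 and 14.4 CPM, and its HD rats had 19.7, 12.9 and 17.7 CPM. Rat 67 was below all AL rats and both other HD rats were above them. The log2 fold change was 0.22 ± 0.18 (SE).

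Of the neutral amino acid exchangers, Slc1a4 (ASCT1, chr14:104317800-104345829, minus strand, 8 exons) moves alanine, serine and cysteine. It had 8.34, 16.4 and 12.1 CPM in AL and 16.4, 12.99 and 17.6 CPM in HD, with overlap and a log2 fold change of 0.34 ± 0.26 (SE). Slc1a5 (ASCT2, chr1:79957648-79971751, plus strand, 8 exons) also accepts glutamine. It had 48.1, 17.7 and 27.6 CPM in AL and 19.6, 26.3 and 27.7 CPM in HD. AL rat 61 stood well above the other 5 rats, and the log2 fold change of -0.34 ± 0.34 (SE) became 0.12 without it.

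**Figure D2:**
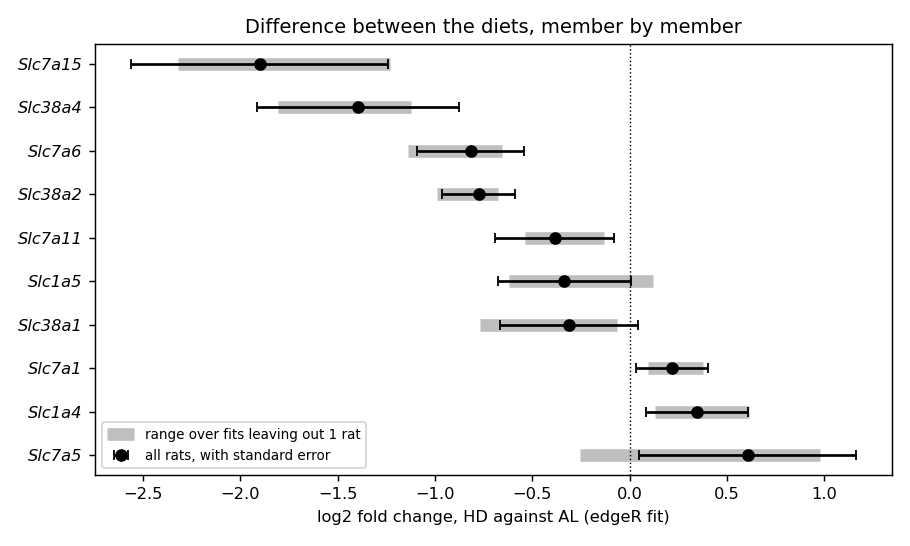
Log2 fold change of HD against AL for each member, with points and bars for the fit and its standard error over 6 rats and grey bands for the range of the fits that leave out 1 rat each (5 fits for Slc38a4, which was not tested without rat 88). The bands of Slc38a1, Slc38a2, Slc38a4, Slc7a6, Slc7a11 and Slc7a15 lie below 0, those of Slc7a1 and Slc1a4 above 0, and those of Slc7a5 and Slc1a5 span 0.

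Leaving out 1 rat at a time, the log2 fold change stayed between -0.99 and -0.68 for Slc38a2, between -1.14 and -0.66 for Slc7a6 and between -2.32 and -1.23 for Slc7a15. For Slc38a4 it stayed between -1.81 and -1.12 over 5 fits. The weaker differences turned more on single rats. Slc38a1 ran from -0.77 without HD rat 69 to -0.06 without HD rat 67, and Slc7a11 from -0.54 without AL rat 61 to -0.13 without AL rat 71. Slc1a4 ran from 0.13 without AL rat 61 to 0.61 without AL rat 71, and Slc7a1 from 0.09 without HD rat 64 to 0.38 without HD rat 67.

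Levels can be compared between genes only per length. In AL the order of mean TPM was Slc38a2 (99.2 ± 11.7), Slc1a5 (19.0 ± 7.70), Slc1a4 (10.1 ± 4.12), Slc7a6 (6.77 ± 1.19), Slc38a1 (6.20 ± 1.41), Slc7a5 (5.46 ± 2.42), Slc7a1 (3.50 ± 0.357), Slc7a15 (3.10 ± 2.28), Slc38a4 (1.34 ± 0.482) and Slc7a11 (0.70 ± 0.262; SD, n = 3). Slc38a2 was the only one whose AL range did not overlap that of the next gene in the order. In HD, Slc38a2 (54.9 ± 11.2 TPM) again came first and apart, Slc1a5 (14.7 ± 3.10) and Slc1a4 (12.01 ± 2.38) followed, and Slc7a15 (0.757 ± 0.395), Slc7a11 (0.50 ± 0.070) and Slc38a4 (0.463 ± 0.260) came last, their ranges lying below that of Slc7a6 (2.66 to 5.40 TPM).

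Slc38a2 made up 63.2, 64.0 and 64.3% of the summed TPM of the members in the AL rats and 53.2, 63.9 and 43.0% in the HD rats. HD rat 67 kept the AL share, and in rat 69 Slc7a5 took 13.2% of the sum. The sum itself was 143.3, 147.4 and 175.0 TPM in AL and 87.2, 105.7 and 118.0 TPM in HD, and its groups did not overlap. Slc38a2, put forward as lower, is the largest part of this sum in every rat, so the separation does not describe the other members.

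Promoter sequence is shown first for the 3 members put forward as lower under the diet, as the 100 bases before the start site, from RefSeq on build GRCr8. Promoter windows (250 bases before to 50 after the start) were at hand for 9 of the 10 members. Capitals mark a match to TGACNNNGC, the core of the antioxidant response element.

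Slc38a2 (chr7:129742620-129742719, minus strand): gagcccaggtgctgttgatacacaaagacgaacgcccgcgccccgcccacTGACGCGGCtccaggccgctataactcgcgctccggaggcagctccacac

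Slc38a4 (chr7:130082170-130082269, minus strand): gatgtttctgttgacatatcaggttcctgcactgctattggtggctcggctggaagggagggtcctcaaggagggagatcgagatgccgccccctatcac

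Slc7a15 (chr6:37134502-37134601, minus strand): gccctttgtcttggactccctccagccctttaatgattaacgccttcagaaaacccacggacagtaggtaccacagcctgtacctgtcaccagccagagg

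The windows of Slc38a4 and Slc7a15 held none of the 3 motifs searched on both strands, which were TGATGNAA (a C/EBP-ATF composite core, to which ATF4 binds), CACGTG (an E-box) and TGACNNNGC. The second set shows the 3 members with TGATGNAA, in 60 bases around the match, with the match in capitals; in Slc1a4 it reads on the other strand.

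Slc38a1 (chr7:129681510-129681569, minus strand): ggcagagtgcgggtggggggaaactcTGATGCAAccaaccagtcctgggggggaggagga

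Slc7a1 (chr12:11664428-11664487, plus strand): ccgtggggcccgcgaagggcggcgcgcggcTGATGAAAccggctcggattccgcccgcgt

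Slc1a4 (chr14:98761753-98761812, minus strand): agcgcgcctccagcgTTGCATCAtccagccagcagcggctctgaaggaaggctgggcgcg

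TGATGNAA occurred in 3 of 9 member windows and in 3.98% of all 33469 RefSeq windows of the same length. CACGTG occurred in 2 of 9 (Slc7a5 and Slc1a4) against 6.42%, and TGACNNNGC in 2 of 9 (Slc38a2 and Slc7a1) against 12.1%. The members with TGATGNAA were 1 with a lower HD mean (Slc38a1) and 2 with a higher one (Slc7a1 and Slc1a4), all with overlapping groups. A match describes letters in this window only.

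Genes of the pathways that act with or on these transporters were counted in 6 lists. Each list had 0 genes past the adjusted threshold with edgeR, and the counts at an unadjusted *P* below 0.05 and with DESeq2 are given beside each. DESeq2 called 182 of all 11553 tested genes. Of 15 tested relatives in the Slc38, Slc7, Slc1 and Slc3 families, 12 were higher in HD and 3 lower, and the middle gene of the list had a log2 fold change of 0.23. The unadjusted threshold was passed upward by 4 relatives, against 4.66% of all genes, and downward by 0, against 5.94%, and DESeq2 called 0. These 4, named after their values were seen, were Slc38a3, the glutamine carrier of the proximal tubule (448.2 to 685.6 CPM in AL and 616.3 to 952.0 in HD), Slc7a7, the basolateral y+LAT1 light chain (6.12 to 8.40 and 9.89 to 14.2), Slc7a8, the basolateral LAT2 light chain, and Slc1a1, the acidic amino acid carrier of the brush border (53.9 to 72.9 and 81.4 to 125.5). Slc7a8 had the highest value of the list, 0.81 ± 0.26 (SE) on the log2 scale with an adjusted *P* of 0.41, and every HD rat (12.02 to 22.8 CPM) above every AL rat (7.81 to 10.4). Slc7a6 and Slc7a7, the y+LAT light chains, thus stood on opposite sides, each without overlap between diets. Of all tested genes, 7.01% were lower and 7.25% higher in HD without overlap. Slc7a12 had the lowest value, -0.39 ± 0.40, with overlap. The heavy chain Slc3a1, with a log2 fold change of 0.09 ± 0.17 and an adjusted *P* of 0.90, was at 4589 TPM in AL and 4636 in HD.

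Of 14 tested genes listed as other plasma membrane amino acid transporters, 6 were higher and 8 lower, with a median of -0.07, and DESeq2 called 0. The unadjusted threshold was passed by 1 in each direction, against 4.66% of all tested genes upward and 5.94% downward. Slc36a2, a proton-coupled carrier of glycine and proline, had the highest log2 fold change, 2.88 ± 1.25 (SE), at no more than 3.33 CPM in any rat and with an adjusted *P* of 0.47. Slc43a3, which belongs to the Slc43 family but carries purine bases, had the lowest, -1.53 ± 0.61, with an adjusted *P* of 0.45.

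Genes of the amino acid response are driven by the transcription factor ATF4 when amino acids are scarce or the endoplasmic reticulum is stressed, and Slc38a2, Slc7a1, Slc7a5, Slc7a11 and Slc1a4 are known among its targets. Of 24 tested genes of this list that are no members, 16 were higher in HD and 8 lower, with a median log2 fold change of 0.15. The unadjusted threshold was passed upward by 4, against 4.66% of all tested genes, and downward by 0, against 5.94%. DESeq2 called 2 of them, both higher and named after their values were seen: Gdf15, a secreted stress hormone, with 27.3 to 51.0 CPM in AL and 95.6 to 138.9 in HD, and Sesn2, a leucine sensor, with 30.2 to 30.8 and 45.7 to 57.9 CPM. Atf4 itself differed by -0.10 ± 0.19 (SE, adjusted *P* = 0.90), the asparagine synthetase Asns by 0.18 ± 0.23 (adjusted *P* = 0.84), Ddit3 by 0.09 ± 0.31 (adjusted *P* = 0.96) and Trib3 by 0.72 ± 0.47 (adjusted *P* = 0.64, edgeR). Chac1, which degrades glutathione, had the highest value, 1.59 ± 0.62 (adjusted *P* = 0.44), and stood at 4.54 CPM in rat 69 against 0.934 and 1.90 in the other HD rats. Nupr1 had the lowest, -0.93 ± 0.42.

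Of 15 tested regulators of system A, 9 were higher and 6 lower, with a median of 0.04. The unadjusted threshold was passed by 1 in each direction, against 4.66% of all tested genes upward and 5.94% downward. The kinase Sgk1, which raises transporter activity, differed by 0.04 ± 0.40 (SE, adjusted *P* = 0.99) and Myc by 1.04 ± 0.31 (adjusted *P* = 0.40), with 51.2 to 62.5 CPM in HD and 17.96 to 44.2 in AL. Nfat5, the transcription factor of the response to hypertonicity, stands in this list and in the tonicity list and was the 1 regulator called by DESeq2. It was at 203.4, 275.5 and 290.4 CPM in AL and at 98.0, 120.7 and 170.3 in HD. Every HD rat was lower, with a log2 fold change of -0.98 ± 0.23 and an adjusted *P* of 0.37.

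Each of the 12 tested genes of the tonicity response was lower in HD, against 48.7% of all tested genes, with a median log2 fold change of -0.91. The unadjusted threshold was passed downward by 6, against 5.94% of all tested genes. DESeq2 called 2, Nfat5 and the inositol carrier Slc5a3, the latter named after its values were seen and at 40.4 CPM in AL rat 61, 3.60 and 9.13 in the other AL rats and 2.55 to 3.997 in HD. Leaving out 1 rat at a time, between 10 and 12 were lower. The range ran from Hspa4l at -0.02 ± 0.27 to Akr1b1, the aldose reductase that makes sorbitol, at -2.63 ± 0.87 (SE, adjusted *P* = 0.41). Akr1b1 was at 23.3, 99.0 and 390.0 CPM in AL and 23.3, 24.0 and 35.3 in HD, so rats 71 and 88 set its difference and rat 61 was level with HD. Of 12 Nrf2 targets, which share the regulator of Slc7a11, 10 were higher and 2 lower, with a median of 0.17, and DESeq2 called 0. The unadjusted threshold was passed upward by 3, against 4.66% of all tested genes. With 1 rat left out the median ran from 0.15 to 0.31, and it was 0.31 without AL rat 61 and 0.29 without AL rat 71. The values ran from -0.61 ± 0.41 for Gpx2 to 0.56 ± 0.52 for Hmox1, while Slc7a11 was at -0.39.

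**Figure D3:**
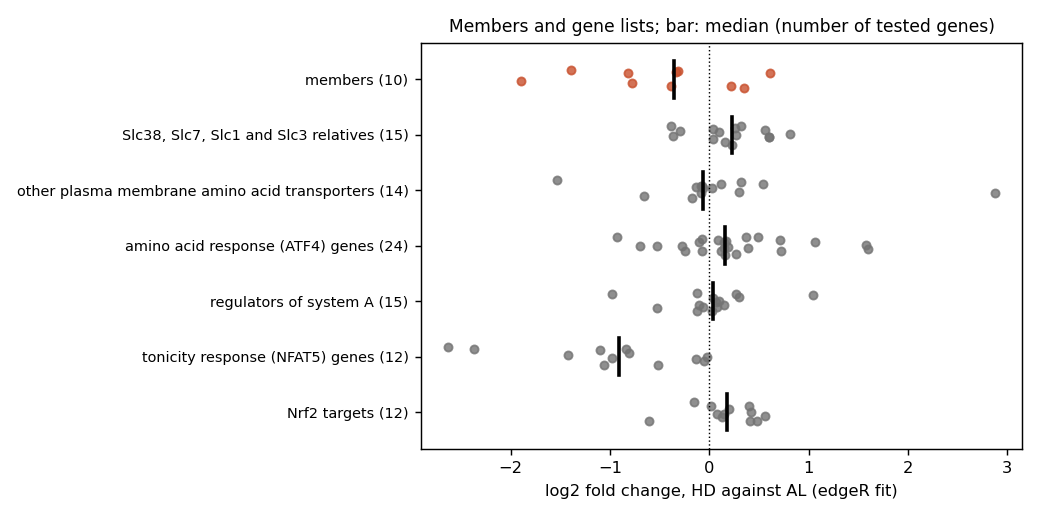
Log2 fold change of HD against AL for the members (orange) and 6 gene lists (grey), 1 point for each tested gene, with the median as a black bar and the number of tested genes in brackets. The tonicity list lies wholly below 0 with a median of -0.91, the members spread from -1.90 to 0.61, and the other lists centre between -0.07 and 0.23.

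In bulk tissue, fewer cells of a type and less RNA per cell cannot be told apart. The 4 markers of the inner medulla, of which Akr1b1 and Slc14a2 also stand in the tonicity list, were all lower in HD. The unadjusted threshold was passed by 4, against 5.94% of all tested genes, and DESeq2 called 2. Their summed level was 324.7, 531.7 and 835.7 CPM in AL and 229.0, 227.5 and 274.5 CPM in HD. Aqp4 had 118.4 to 183.7 CPM in AL and 68.5 to 78.6 in HD. Within AL the sum was lowest in rat 61 and highest in rat 88. Of its markers, Akr1b1 and Aqp4 showed this order. Slc14a2 was highest in rat 71 (40.4, 145.3 and 122.0 CPM in rats 61, 71 and 88). Fxyd4 was highest in rat 61 (142.6, 137.8 and 140.0 CPM). The order of the sum was also seen for Slc38a4, Slc7a15 and Nfat5, and for Slc7a5, whose HD mean was higher, but not for Slc38a2 or Slc7a6. The share of all tested genes with this order was not counted, and Slc38a4 had only 13, 26 and 30 counts in these rats. The part of tissue make-up in the lower levels of Slc38a2, Slc38a4, Slc7a6 and Slc7a15 was not tested.

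**Figure D4:**
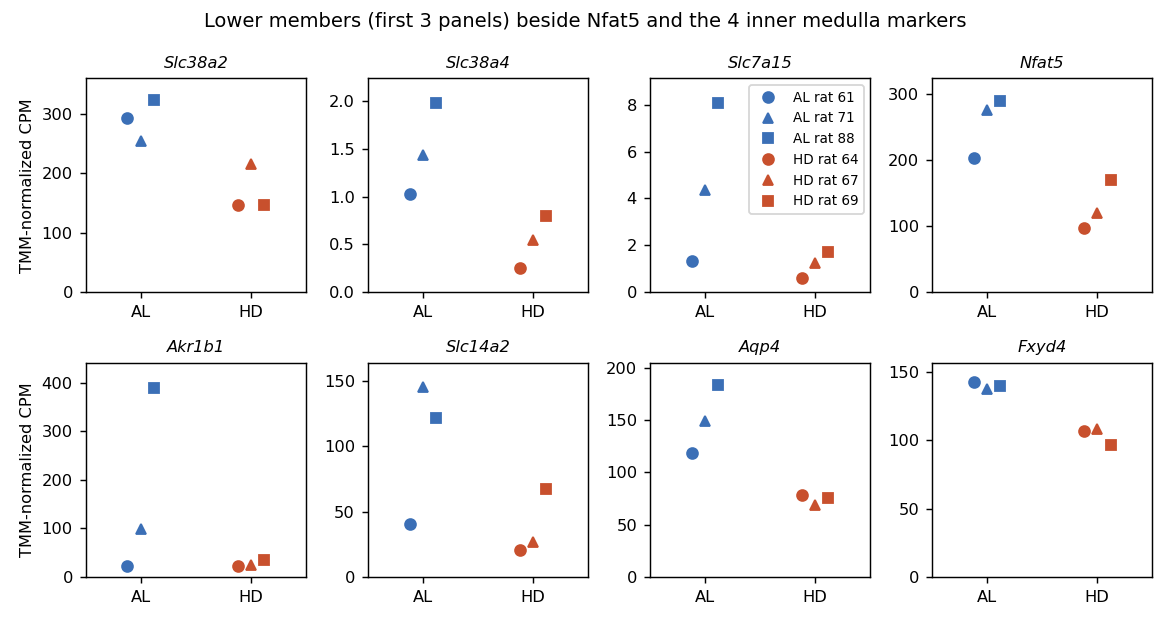
CPM by rat, on linear axes from 0, of Slc38a2, Slc38a4 and Slc7a15 beside Nfat5 and the inner medulla markers Akr1b1, Slc14a2, Aqp4 and Fxyd4; blue is AL, orange is HD, and the marker shape names the rat. AL rat 61 is the lowest AL rat in Slc38a4, Slc7a15, Nfat5, Akr1b1, Slc14a2 and Aqp4. It is the middle AL rat in Slc38a2 and the highest in Fxyd4.

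Markers of other cell types differed in level between the rats as well. The AL order of the inner medulla sum was not particular to it. In rats 61, 71 and 88, endothelium markers summed to 79.98, 201.2 and 214.1 CPM and smooth muscle markers to 43.5, 111.2 and 112.7. The opposite order was seen for the early proximal tubule (4948, 4141 and 3502 CPM) and the thick ascending limb (6232, 5732 and 5485 CPM). In HD these sums were 4857 to 6335 and 3648 to 5915 CPM, with overlap, and all 4 thick ascending limb markers were lower. Slc12a3, the only tested distal convoluted tubule marker, was named after its values were seen. It had 18.1 to 27.6 CPM in AL and 51.5 to 286.8 in HD, and DESeq2 called it. Intercalated cell markers summed to 781.2 to 912.2 CPM in AL and 637.7 to 737.7 in HD, although 3 of 4 were higher. Of 4 principal cell markers 3 were lower, with overlap in sum. The 7 tested macrophage markers were all lower in HD, summing over the whole list to between 43.8 and 130.3 CPM in AL and between 26.7 and 49.0 in HD, with rat 61 lowest in AL and below HD rat 69, so these sums overlapped. The 3 tested lymphocyte markers were all lower too, at 10.8 to 23.7 CPM in AL and 4.41 to 6.97 in HD. Of 4 fibroblast markers 3 were lower, at 108.0 to 246.8 CPM in AL and 81.8 to 117.8 in HD. The 5 podocyte markers were all higher by their means, at 50.4 to 119.1 and 171.1 to 365.5 CPM in sum. Every HD rat was above every AL rat for 3 of them, against 7.25% of all tested genes. The 5 adipocyte markers were also all higher by their means, but their sum was 269.7 and 205.9 CPM in HD rats 67 and 69 and 24.9 in HD rat 64, against 44.9 to 103.2 in AL. The 4 tested red blood cell markers were higher, at 543.6 to 886.6 and 801.1 to 1444 CPM, with overlap. Rat 69, the rat with the high Slc7a5 and Chac1 values, also had 260.5 CPM of smooth muscle markers against 43.5 to 112.7 in the other rats, and the part of this in the Slc7a5 value was not tested.

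The genes most like 3 of the members were sought by the root mean square difference between log2(CPM + 0.5) profiles centred on their mean, over 6 rats and among genes with a mean of at least 5 CPM. Closest to Slc38a2 were Cpox, an enzyme of haem synthesis (0.091), Arhgef37 (0.097) and Isg15, an interferon-induced protein (0.138). Closest to Slc38a4 were Nlgn2 (0.099), Nfat5 (0.106) and Adamtsl4 (0.127). Closest to Slc7a15 were Vcan, a matrix proteoglycan (0.105), Slc43a3 (0.179) and Zcchc24 (0.233). With 2 CPM added in place of 0.5, 2 of the 3 genes closest to Slc38a2 stayed among its closest 3, 1 of 3 for Slc7a15 and 0 of 3 for Slc38a4, whose low counts make its profile the least certain.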

How the data were processed

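Per the labels, poly(A)-selected kidney RNA was sequenced as single-end reads. The authors quantified transcripts with RSEM, version 1.1.15 in the submitters' processing notes, on build rn5, and deposited 1 table per rat of expected counts, posterior counts and TPM. RSEM ran at its default parameters, which do not use strand; no other listed gene overlapped a member. Expected counts were summed per gene and rounded. Deposited TPM were summed per gene and used for levels between genes.

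Genes with at least 30 counts in 1 or more rats were fitted with edgeR 4.0.16 in R 4.3.3 (TMM, quasi-likelihood F-test, 3 against 3 rats, Benjamini-Hochberg adjustment over 11553 genes); SE is that of the log2 fold change. DESeq2 1.42.0 was an alternative, and others were RLE scaling, library size alone, other count filters, posterior counts, robust edgeR and leaving out each rat. Scripts were tested on simulated counts. Members and lists were chosen with earlier results of these data known. Genes named outside the members were the highest and lowest of each pathway list, any past the adjusted threshold, the fixed names Atf4, Asns, Ddit3, Trib3, Sgk1, Nfat5, Slc3a2 and Slc3a1, the 3 genes most like Slc38a2, Slc38a4 and Slc7a15, and those said to be named later. Myc and Akr1b1 are such extremes, and the inner medulla markers were added for tissue make-up.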

Additional observations from a re-analysis of the deposited data

How the results depend on the processing

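Slc38a2, Slc38a4, Slc7a6, Slc7a15, Slc38a1 and Slc7a11 stayed lower, and Slc7a1 and Slc1a4 higher, in every alternative that gave a value. Slc38a4 gave none without AL rat 88 or with 10 counts required in every rat, which also removed Slc7a15. Leaving out HD rat 69 turned Slc7a5 to -0.25 and leaving out AL rat 61 turned Slc1a5 to 0.12. Without both, chosen after seeing the data, Slc7a5 was at -0.53, the median of the members at -0.62, of the ATF4 list at 0.0046 and of the regulators at -0.030, with 691 genes called and 1109 higher and 1691 lower at unadjusted *P* below 0.05 (edgeR). Genes called numbered 182 with DESeq2, 2 with any count above 0 kept, and 0 to 4 with 1 rat left out; at unadjusted *P*, 257 to 730 were then higher and 329 to 1048 lower. Scaling by library size alone moved the median of all genes from 0.0067 to -0.074, gave 317 higher genes, put 5 relatives and 4 Nrf2 targets lower, and turned the regulators' median to -0.050. With 1 rat left out, medians ran from 0.086 to 0.30 for relatives (3 to 5 lower), -0.050 to 0.13 for other transporters, 0.012 to 0.24 for ATF4 genes (5 to 11 lower) and -0.069 to 0.12 for regulators, and 6 to 10 members kept their place in the HD order of TPM. In CPM in place of TPM, 4 (AL) and 3 (HD) kept it. The causes were not tested. No paired analysis was possible because the rat numbers are not shared between the diets. Depth limits Slc38a4 and Slc7a15 most.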
